A study of Mus musculus with 17 samples.

Results

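The genes studied here encode the proteins at the end of the mitochondrial respiratory chain, namely complex III, cytochrome c, complex IV and ATP synthase, and were measured in mouse skeletal muscle. A gene was a member when the array's annotation gave a probe set 1 gene symbol and that symbol began with Uqcr, Cox4, Cox5, Cox6, Cox7, Cox8 or Atp5, or was Cyc1 or Cycs. Where a gene had several probe sets, its brightest one on average over the 17 arrays was used. This gave 44 members among 19938 genes: 17 of ATP synthase, 17 of complex IV, 9 of complex III, and Cycs, the cytochrome c gene of somatic tissues. One of them, Cox7a2l, is no structural subunit but a factor that joins complexes III and IV into supercomplexes. Cox7c, a small subunit of complex IV, was not a member because its 3 probe sets each carried 2 symbols.

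Complex III takes electrons from ubiquinol and hands them to cytochrome c, a small soluble carrier. Complex IV passes them to oxygen, and both complexes pump protons across the inner mitochondrial membrane. ATP synthase lets the protons flow back through a rotating ring in the membrane and uses the rotation to make ATP, which contracting muscle needs in large amounts. Most of these subunits are encoded in the nucleus, while the catalytic cores of complexes III and IV and the proton channel of ATP synthase also hold subunits encoded by mitochondrial DNA.

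The arrays came from male wildtype C57BL/6N mice that were 5-6 months old, with 1 array per mouse. Control mice on a standard diet (Con,SD, n = 7) had mock injections of citrate buffer, while diabetic mice on the same diet (STZ,SD, n = 5) had received 65 mg/kg streptozotocin, which kills the beta cells of the pancreas and so lowers insulin, on each of 5 days at an age of 10-16 weeks. The third group (STZ,BEZ, n = 5) had the same injections and, from 2 weeks later, ate chow with bezafibrate, an agonist of the peroxisome proliferator-activated receptors, for 8 weeks. These details follow the labels, which give 0.25% or 0.5% bezafibrate without saying which mouse ate which, whereas the study's methods give a lower streptozotocin dose, only the stronger chow and untreated controls. The sources used here do not name the muscle.

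Promoters of 4 members are shown because these genes carry, close to the start of transcription, a motif known from nuclear genes of the respiratory chain, and because their calls in the diabetic mice differed: Cycs and Atp5h fell, while Atp5g2 and Uqcrh were not called. Each is the run of 120 bases before the RefSeq start site of the gene (GRCm38.p6, minus strand in all 4), at chr6:50566570-50566689 for Cycs, chr11:115419920-115420039 for Atp5h, chr15:102671048-102671167 for Atp5g2 and chr4:116075071-116075190 for Uqcrh. Capitals mark the NRF-1 core CGCATGCG in Cycs and Atp5g2, and in Atp5h and Uqcrh the ETS motif bound by GABP, CCGGAAGN, which on the other strand reads CTTCCGG after any first base.
Cycs: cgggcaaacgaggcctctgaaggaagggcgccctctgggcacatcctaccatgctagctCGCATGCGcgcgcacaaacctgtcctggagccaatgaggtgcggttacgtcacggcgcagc
Atp5h: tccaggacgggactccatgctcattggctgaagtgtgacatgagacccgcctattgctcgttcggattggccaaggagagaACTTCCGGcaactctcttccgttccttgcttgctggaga
Atp5g2: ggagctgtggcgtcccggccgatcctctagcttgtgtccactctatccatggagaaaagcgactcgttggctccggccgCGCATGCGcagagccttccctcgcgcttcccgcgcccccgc
Uqcrh: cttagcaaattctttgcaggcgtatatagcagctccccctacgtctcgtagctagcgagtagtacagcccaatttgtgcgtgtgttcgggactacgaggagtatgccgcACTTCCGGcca

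NRF-1 and GABP are transcription factors known to drive nuclear genes of oxidative phosphorylation. The motifs were searched as exact letters on both strands in the window from 250 bases before to 50 bases after the start, which the RefSeq table held for 33 of the 44 members. The NRF-1 core was found in 8 of the 33 (24.2%) and in 559 of all 27025 genes of that table (2.07%). The ETS motif was found in 11 of the 33 (33.3%) and in 2675 of all genes (9.90%). The core motif of the estrogen-related receptors, AAGGTCA, was found in 4 members (12.1%) and 1454 genes (5.38%). Among members with a promoter, the NRF-1 core stood in 3 of 12 that were lower in STZ,SD and in 5 of 19 that were not called, and the ETS motif in 4 of 12 and 6 of 19. A match says only that the letters are there.

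Array medians lay between 6.22 and 6.32 on the log2 scale, and no value was missing. The mean level of 12 skeletal muscle markers was 13.27 to 13.48 in Con,SD, 13.27 to 13.47 in STZ,SD and 13.34 to 13.41 in STZ,BEZ. That of 8 slow fibre markers varied far more, from 6.76 to 9.29, 6.87 to 9.92 and 8.44 to 10.16 in the same order. Con,SD mouse 1 stood apart from its group, with a median correlation of 0.970 to the other controls, against 0.989 or more for every other array and its own group. It had the highest mean of 12 hepatocyte markers (11.98, next highest 10.03) and of 8 testis markers (8.98, next highest 5.95), so counts are also given without it. Because whole muscle was measured, fewer muscle cells and less RNA per cell cannot be told apart.

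The STZ,SD vs. Con,SD comparison asked what differed in muscle between streptozotocin-injected and control mice. In the study these groups also differed in blood glucose and body weight. Low insulin, high glucose, lower weight and the drug itself therefore cannot be told apart. Most members that changed were lower in the diabetic mice, and Atp5md, Uqcrc2, Atp5h, Cox5b and Atp5d had the smallest adjusted p among them. Of the 44 members 15 were lower (34.1%) and 3 were higher (6.82%) at a limma adjusted p under 0.1, while over all 19938 genes 11.9% were lower and 13.9% were higher. The median log2 difference of the members was -0.11, against -0.01 over all genes and -0.02 over the 1993 genes with the highest mean, of which 545 were lower and 427 higher. The difference was negative for 36 members, as for 52.3% of all genes, and positive for 8. The 2 groups did not overlap for 8 lower members (18.2%) and 1 higher member (2.27%), with 3.43% and 4.87% over all genes. By complex, 8 of 17 ATP synthase members were lower and 0 higher (median -0.26), 4 of 9 members of complex III were lower and 0 higher (median -0.17), 2 of 17 members of complex IV were lower and 3 higher (median -0.07), and Cycs was lower. The complex IV members include Cox6b2, Cox7b2 and Cox8c, whose mean values of 5.88, 4.17 and 5.77 lay below the array medians.

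Without Con,SD mouse 1, 14 members were lower and 2 higher, and without Con,SD mouse 6, 19 were lower and 3 higher, the 4 added calls being Atp5mpl, Uqcrq, Cox4i1 and Cox6c. Over all arrays left out in turn, 14 (without STZ,SD mouse 2) to 22 (without Con,SD mouse 6) members were called. Of the 8 slow fibre markers 1 was higher (Casq2, a calsequestrin of slow and cardiac muscle). Their mean level had a higher median in STZ,SD (9.35) than in Con,SD (7.57). The group means of this level were closer, at 8.52 and 8.00, and the ranges overlapped. With slow fibre level as a covariate, chosen after seeing the data, 15 members were lower and 1 was higher. Of 6 endothelial markers 3 were higher (mean level 9.13 to 9.40 in STZ,SD, 8.90 to 9.14 in Con,SD). Of the hepatocyte markers 12 of 12 had a negative difference (median -0.81), and 2 were called lower. The difference was also negative for 5 of 5 adipocyte markers (median -0.27, 1 called lower) and 8 of 8 testis markers (median -0.70, 0 called). The part of these markers in the result was not tested.

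**Figure D1:**
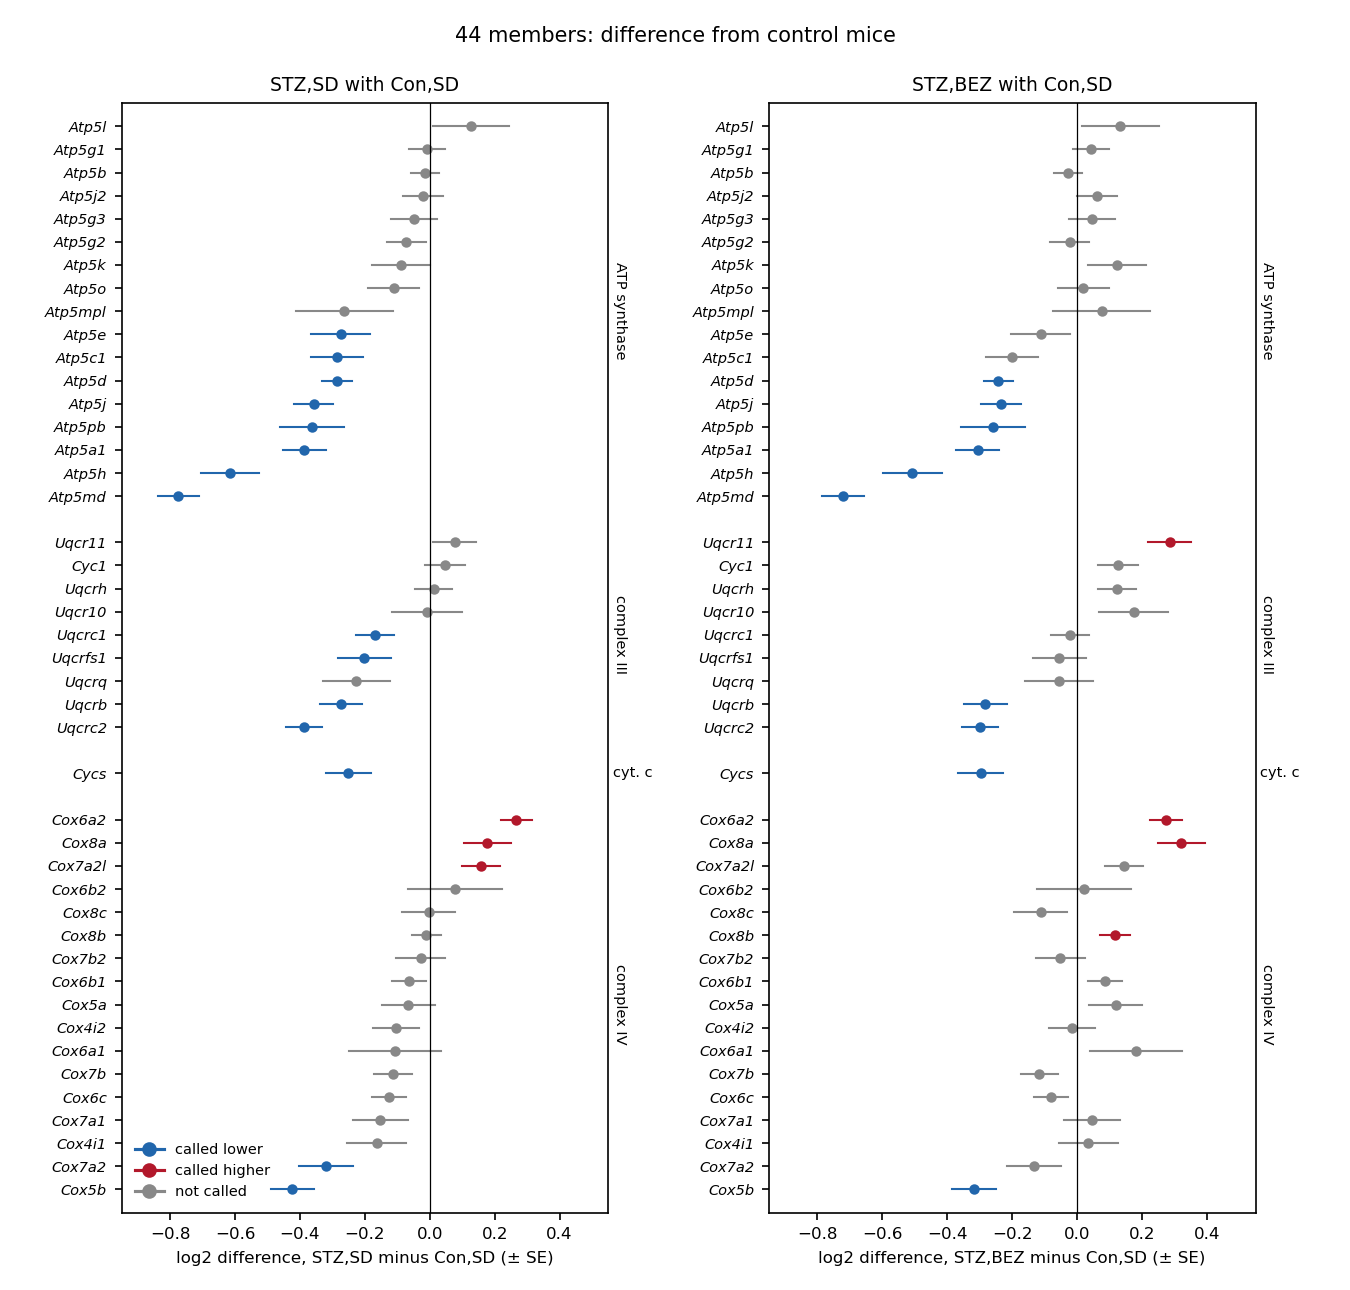
Log2 difference from Con,SD (x axis, points, with bars of ± SE) for each of the 44 members (y axis, grouped by complex), in STZ,SD on the left and STZ,BEZ on the right. Blue points were called lower and red points higher at a limma adjusted p under 0.1. Atp5md and Atp5h lie farthest to the left in both panels, and the 3 red points of the left panel are all of complex IV.

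Among ATP synthase members the largest fall was that of Atp5md, which encodes a small protein attached to the membrane part of the enzyme and known as DAPIT, the diabetes-associated protein in insulin-sensitive tissues. Its log2 values in Con,SD ran from 12.72 over a median of 12.89 to 13.04. In STZ,SD the 5 values were 12.02, 12.05, 12.09, 12.10 and 12.21, and in STZ,BEZ they were 12.07, 12.09, 12.10, 12.16 and 12.31. Every diabetic mouse, with or without bezafibrate, thus lay below every control. Atp5md fell by 0.77 ± 0.06 on the log2 scale in STZ,SD (1.71-fold lower, adjusted p = 9.01e-07), and all 3 of its probe sets were called lower. The other attached small protein, Atp5mpl, differed by -0.26 ± 0.15 and was not called (adjusted p = 0.24).

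The peripheral stalk holds the catalytic head still while the ring turns, and 3 of its 4 members fell. Atp5h, the stalk's subunit d, had a lowest, median and highest value of 11.71, 12.15 and 12.31 in Con,SD. Its STZ,SD values were 11.32, 11.39, 11.53, 11.54 and 11.60, all below the lowest control. It fell by 0.62 ± 0.09 on the log2 scale (1.53-fold lower, adjusted p = 0.000163), again with 3 of 3 probe sets called. Atp5j, coupling factor 6 of the stalk, ran from 12.50 over 12.59 to 12.74 in Con,SD. Its STZ,SD values were 12.15, 12.21, 12.23, 12.28 and 12.38, so the groups did not overlap here either. It fell by 0.36 ± 0.06 (adjusted p = 0.000605). Atp5pb, the long subunit b, fell by 0.36 ± 0.10 (adjusted p = 0.0152) with overlapping groups. Atp5o, the subunit that ties the stalk to the head, differed by -0.11 ± 0.08 and was not called (adjusted p = 0.351).

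Of the 5 members of the F1 head, where ATP is made, 4 fell (median over the 5 -0.29). Atp5d, a subunit of the central stalk, varied little between mice. It ran from 13.42 over 13.50 to 13.58 in Con,SD, and its STZ,SD values were 13.17, 13.22, 13.22, 13.23 and 13.24. It fell by 0.29 ± 0.05 (1.22-fold lower, adjusted p = 0.000317) without overlap. Atp5a1, the alpha subunit, ran from 12.48 over 12.78 to 12.87 in Con,SD and had values of 12.27, 12.30, 12.42, 12.44 and 12.46 in STZ,SD. The groups came close only through the lowest control, mouse 6. It fell by 0.39 ± 0.07 (adjusted p = 0.000657). The gamma and epsilon subunits of the central stalk also fell, Atp5c1 by 0.29 ± 0.08 (adjusted p = 0.0189) and Atp5e by 0.27 ± 0.09 (adjusted p = 0.0438), and Atp5e was no longer called without STZ,SD mouse 5. The exception was Atp5b, the catalytic beta subunit. Its values were 13.14, 13.17, 13.17, 13.22 and 13.25 in STZ,SD against 13.16, 13.22 and 13.24 (lowest, median and highest) in Con,SD, a difference of -0.02 ± 0.04 with a 95% interval from -0.10 to 0.07.

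The 3 genes of the c ring, Atp5g1, Atp5g2 and Atp5g3, encode the same mature protein, and 0 of the 3 was called. Their differences were -0.01 ± 0.05, -0.07 ± 0.06 and -0.05 ± 0.07, with 95% intervals that together ran from -0.20 to 0.11. A second quantile normalization turned all 3 signs (0.04, 0.01 and 0.04). The membrane subunits e, f and g (Atp5k, Atp5j2 and Atp5l) were not called either, with differences of -0.09 ± 0.09, -0.02 ± 0.06 and 0.13 ± 0.12. The difference between these parts of the enzyme was not tested.

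**Figure D2:**
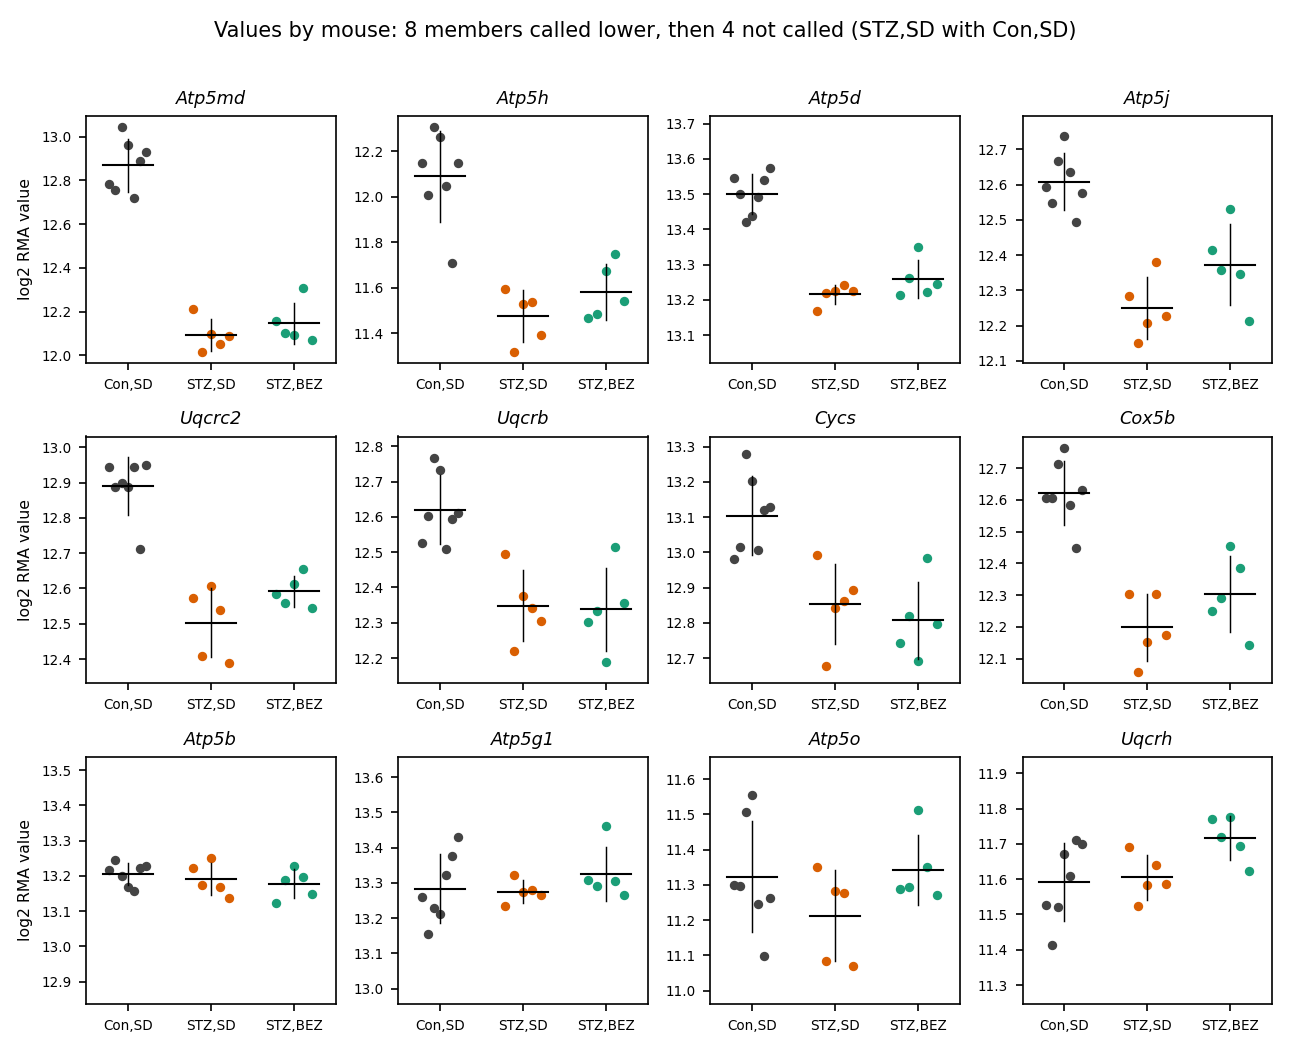
Log2 RMA value (y axis) of 12 members in each mouse (points) of Con,SD, STZ,SD and STZ,BEZ, with the group mean (horizontal line) and ± SD (vertical line). The 7 members of the upper rows other than Cycs show STZ,SD points all below the Con,SD points, Cycs shows a small overlap, and the groups of Atp5b, Atp5g1, Atp5o and Uqcrh in the lowest row overlap.

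In complex III, both core proteins and 2 further subunits fell. Uqcrc2, a core protein, ran from 12.71 over 12.90 to 12.95 in Con,SD. Its STZ,SD values were 12.39, 12.41, 12.54, 12.57 and 12.61, all below the lowest control. It fell by 0.39 ± 0.06 on the log2 scale (1.31-fold lower, adjusted p = 0.000139). Uqcrb, a subunit near the site where ubiquinone binds, ran from 12.51 over 12.60 to 12.77 in Con,SD. Its STZ,SD values were 12.22, 12.31, 12.34, 12.38 and 12.50, again without overlap. It fell by 0.27 ± 0.07 (adjusted p = 0.00731), and all 3 of its probe sets were called lower.

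The falls of the other core protein and of the Rieske protein were smaller. Uqcrc1 fell by 0.17 ± 0.06 (adjusted p = 0.0562), with values of 11.56, 11.59, 11.62, 11.66 and 11.75 in STZ,SD and of 11.71, 11.83 and 11.86 (lowest, median and highest) in Con,SD, so that 1 diabetic mouse lay inside the control range. Uqcrfs1, the iron-sulfur protein that passes electrons on towards cytochrome c1, fell by 0.20 ± 0.08 (adjusted p = 0.0924). Its STZ,SD values were 9.05, 9.06, 9.22, 9.27 and 9.38 and its Con,SD values ran from 9.17 over 9.43 to 9.57. Both calls rested on few arrays: 2 members of complex III instead of 4 were called without STZ,SD mouse 1, 2 or 5 and under a second quantile normalization. Cyc1, the cytochrome c1 that hands electrons to cytochrome c, was not called (0.05 ± 0.06), nor were Uqcrh, the acidic hinge protein (0.01 ± 0.06), and the small subunits Uqcr10 (-0.01 ± 0.11), Uqcr11 (0.08 ± 0.07) and Uqcrq (-0.23 ± 0.10, adjusted p = 0.143).

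Cycs, the carrier between complexes III and IV, had values of 12.98, 13.12 and 13.28 (lowest, median and highest) in Con,SD and of 12.68, 12.84, 12.86, 12.89 and 12.99 in STZ,SD. The highest diabetic mouse reached just above the lowest control. Cycs fell by 0.25 ± 0.07 on the log2 scale (1.19-fold lower, adjusted p = 0.0158). Of its 3 probe sets 2 were called lower, and the dimmest, with a mean of 5.86, differed by -0.13 and was not called. Across all members, 13 had several probe sets. In STZ,SD vs. Con,SD the probe sets of each had the same sign, and 12 had the same call on all of them. Such probe sets can lie in near-identical copies of the gene, and the annotation used here does not say which one is the parent gene.

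In complex IV 2 members fell and 3 rose, and a difference from the other complexes was not tested. Cox5b, a zinc-binding subunit on the matrix side, ran from 12.45 over 12.61 to 12.76 in Con,SD. Its STZ,SD values were 12.06, 12.15, 12.17, 12.30 and 12.30, below every control. It fell by 0.42 ± 0.07 on the log2 scale (1.34-fold lower, adjusted p = 0.000311), on both of its probe sets. Not called were Cox4i1 (-0.16 ± 0.09), Cox5a (-0.07 ± 0.08), Cox6b1 (-0.06 ± 0.05), Cox6c (-0.13 ± 0.05, adjusted p = 0.105) and Cox7b (-0.11 ± 0.06). Cox4i1 was called lower without Con,SD mouse 6 (-0.22). The count of 5 called members became 7 without that mouse, and 3 without Con,SD mouse 5, STZ,SD mouse 2 or STZ,SD mouse 3, in a fit of only the 2 groups and under SAM.

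Subunits 6a, 7a and 8 of complex IV exist as a form of heart and skeletal muscle and a widely expressed form. Of the muscle forms, Cox6a2 was higher in every diabetic mouse. Its values ran from 12.78 over 12.90 to 12.94 in Con,SD and were 13.08, 13.11, 13.12, 13.15 and 13.22 in STZ,SD. It rose by 0.27 ± 0.05 (adjusted p = 0.00105) without overlap. Cox7a1 ran from 12.30 over 12.51 to 12.76 in Con,SD, had values of 12.18, 12.30, 12.43, 12.43 and 12.57 in STZ,SD and was not called (-0.15 ± 0.09, adjusted p = 0.231). Cox8b, which ran from 12.98 over 13.07 to 13.16 in Con,SD, was not called either (-0.01 ± 0.05, adjusted p = 0.898).

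The widely expressed partners moved in both directions. Cox7a2 ran from 10.09 over 10.37 to 10.52 in Con,SD and had values of 9.82, 10.03, 10.08, 10.13 and 10.18 in STZ,SD. It fell by 0.32 ± 0.08 (adjusted p = 0.0113), and Con,SD mouse 6 was the only control inside the diabetic range. Cox8a rose by 0.18 ± 0.07 (adjusted p = 0.091), with values of 9.78, 9.82, 9.82, 9.90 and 10.08 in STZ,SD and of 9.55, 9.71 and 9.89 (lowest, median and highest) in Con,SD, so the groups overlapped. This call was lost in 15 of the 29 other settings tried. Cox6a1 was not called (-0.11 ± 0.14, adjusted p = 0.632). Its values were 8.07, 8.14, 8.30, 8.38 and 8.48 in STZ,SD. In Con,SD they spread from 7.97 over 8.26 to 9.01, and the highest was that of Con,SD mouse 1, the array with the high hepatocyte and testis markers. The difference between the forms of a pair was not tested.

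Cox7a2l, the supercomplex factor, ran from 8.02 over 8.24 to 8.35 in Con,SD and had values of 8.31, 8.32, 8.34, 8.36 and 8.46 in STZ,SD. It rose by 0.16 ± 0.06 (adjusted p = 0.0671) with overlapping groups, and its dimmer probe set rose by 0.24. The call was lost in 10 of 29 settings. The forms known from testis, Cox6b2, Cox7b2 and Cox8c, and Cox4i2, known from lung and low oxygen, were not called, with differences from -0.10 to 0.08. Cox7b2 had group means of 4.16 and 4.19, near the low end of the table. Cox6b2 was at 6.59 in Con,SD mouse 1 and at 5.92 or less in the other controls.

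**Figure D3:**
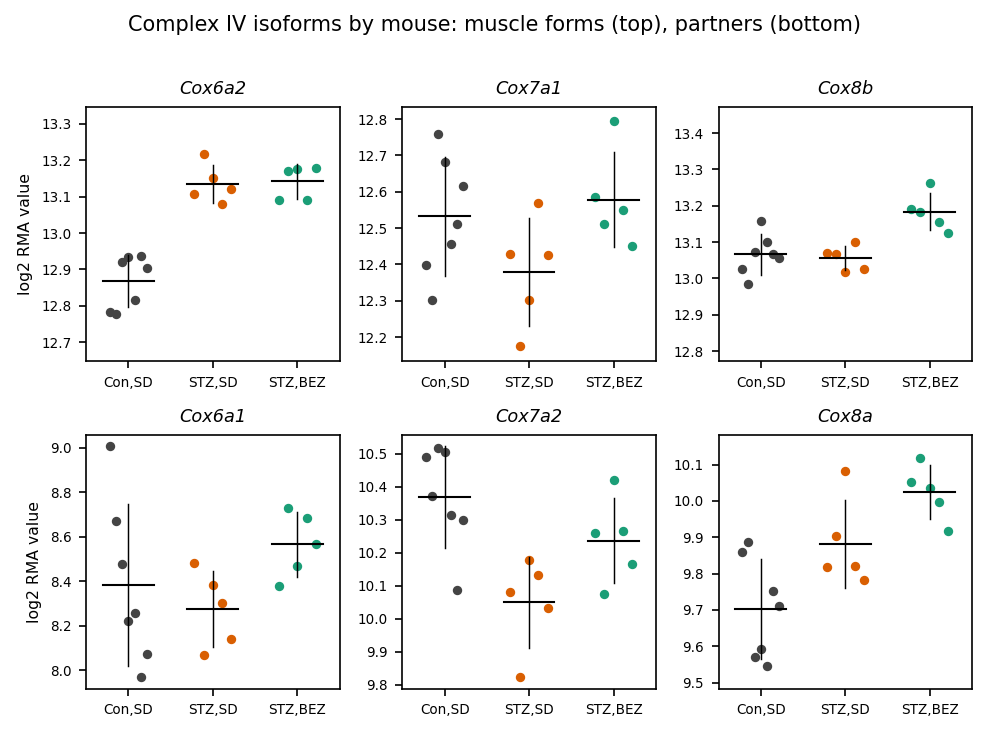
Log2 RMA value (y axis) in each mouse (points) for the muscle forms Cox6a2, Cox7a1 and Cox8b of complex IV (upper row) and their widely expressed partners Cox6a1, Cox7a2 and Cox8a (lower row), with the group mean (horizontal line) and ± SD (vertical line). Cox6a2 is higher in all 10 streptozotocin mice than in the 7 controls, Cox8b is higher in STZ,BEZ than in STZ,SD, and Cox7a2 is lowest in STZ,SD.

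Many genes that help to build these complexes were lower too. Of the 32 assembly factors measured, 18 were lower and 2 higher in STZ,SD, with a median of -0.31. Over all genes 11.9% were lower and 13.9% higher. Cmc1, a factor for complex IV, fell by 0.89 ± 0.08 (adjusted p = 3.83e-06), Atpaf1, which binds the beta subunit of the F1 head, by 0.59 ± 0.07 (adjusted p = 4.21e-05) and Higd2a, a factor of complex IV and supercomplexes, by 0.58 ± 0.08 (adjusted p = 7.95e-05). Of the mitochondrially encoded subunits of these complexes, 1 was found in the table with its own symbol: COX2, which holds the copper site that takes electrons from cytochrome c, fell by 0.23 ± 0.07 (adjusted p = 0.0333). Atpif1, the inhibitor of ATP synthase, was not called (0.08 ± 0.08, adjusted p = 0.548), nor was Ndufa4, a complex IV subunit named after complex I (-0.24 ± 0.16, adjusted p = 0.322). Of 14 transcription factors and coactivators of respiratory chain genes, 0 were lower and 5 higher, against 11.9% and 13.9% of all genes. Sp1, which binds many of these promoters, rose by 0.51 ± 0.07 (adjusted p = 0.000166), Nrf1, the gene of the factor NRF-1, by 0.32 ± 0.07 (adjusted p = 0.00331) and Yy1, a factor that acts with PGC-1alpha, by 0.25 ± 0.05 (adjusted p = 0.00409).

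Within a group, single mice stood low or high for many members at once. Con,SD mouse 6 had the lowest control value for 22 of the 44 members, STZ,SD mouse 2 the lowest of its group for 23, and STZ,BEZ mouse 3 the highest of its group for 26. The median deviation of the members from their group median was -0.11 in Con,SD mouse 6, -0.07 in STZ,SD mouse 2 and 0.12 in STZ,BEZ mouse 3. The SD between mice of a group, pooled over the 3 groups, had a median of 0.11 over the members. It was smallest for Atp5b (0.04), Cox8b (0.05) and Atp5d (0.05) and largest for Atp5mpl (0.28), Cox6b2 (0.27), Cox6a1 (0.27) and Atp5l (0.22).

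The STZ,BEZ vs. STZ,SD comparison asked what differed between diabetic mice with and without bezafibrate. In the study the treated mice also had lower blood glucose, plasma triglycerides and free fatty acids. An effect of the drug on muscle itself and milder diabetes therefore cannot be told apart. Differences lay above 0 for most members, and none passed the test. With limma, 0 of the 44 were called (smallest adjusted p 0.778), as were 0.0201% of all genes, that is 4. SAM called 29 genes in all, and 0 members. The difference was positive for 36 of 44 members (81.8%) and for 50.7% of all genes, with a median of 0.10 against 0.00. Of the 1993 genes with the highest mean, 1293 had a positive difference, and their median was 0.04. Medians were 0.15 in complex III, 0.11 in complex IV and 0.08 in ATP synthase, while Cycs differed by -0.05 ± 0.07. The sign for Cycs depended on the probe set, as its others differed by 0.03 (mean value 12.33) and 0.31 (mean value 5.86). At an unadjusted p under 0.05, 7 members were higher (15.9%) and 0 lower, against 3.55% and 2.14% of all genes.

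The member with the smallest p was Uqcr11, a small subunit of complex III. Its values were 11.82, 11.82, 11.90, 11.91 and 12.10 in STZ,BEZ and 11.62, 11.64, 11.65, 11.71 and 11.88 in STZ,SD. Only STZ,SD mouse 1 reached into the range of the treated mice. The difference was 0.21 ± 0.07, with a 95% interval from 0.06 to 0.36 (adjusted p = 0.778). In complex IV it was Cox6b1, a subunit on the side where cytochrome c binds, at 11.79, 11.81, 11.85, 11.85 and 12.01 against 11.63, 11.64, 11.71, 11.75 and 11.83, a difference of 0.15 ± 0.06 (adjusted p = 0.796). In ATP synthase it was Atp5k, subunit e, at 8.95, 8.96, 9.04, 9.13 and 9.38 against 8.80, 8.82, 8.85, 8.89 and 9.05, a difference of 0.21 ± 0.10 (adjusted p = 0.87).

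The muscle form Cox8b was the 1 member of 44 (2.27%) that was higher without overlap of the groups, as were 0.677% of all genes. Its values were 13.13, 13.16, 13.18, 13.19 and 13.26 in STZ,BEZ and 13.02, 13.03, 13.07, 13.07 and 13.10 in STZ,SD, a difference of 0.13 ± 0.05 (adjusted p = 0.797). For the 4 members with the smallest adjusted p in STZ,SD vs. Con,SD the differences were small: Atp5md differed by 0.05 (95% interval -0.09 to 0.20), Atp5h by 0.11 (-0.10 to 0.31), Uqcrc2 by 0.09 (-0.04 to 0.21) and Cox5b by 0.11 (-0.05 to 0.26). Over all 44 members the intervals lay between -0.38 and 0.68, and those of 2 members, Atp5mpl and Cox6a1, reached above 0.5. Of the 32 assembly factors 32 had a positive difference (median 0.14) and 0 were called, and COX2 differed by -0.10 ± 0.08. The slow fibre markers, 0 of 8 called, had a mean level of 8.44 to 10.16 with bezafibrate and 6.87 to 9.92 without it. Of the hepatocyte markers 11 of 12 had a negative difference (median -0.58, mean level 7.76 to 8.38 against 8.18 to 9.13), and of the adipocyte markers 5 of 5 a positive one (median 0.45, 7.96 to 9.26 against 7.30 to 8.68), with 0 called in either list. The median of the members was 0.09 once slow fibre level entered as a covariate. It was 0.07 to 0.12 with any 1 array left out. The part of these markers in the result was not tested.

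**Figure D4:**
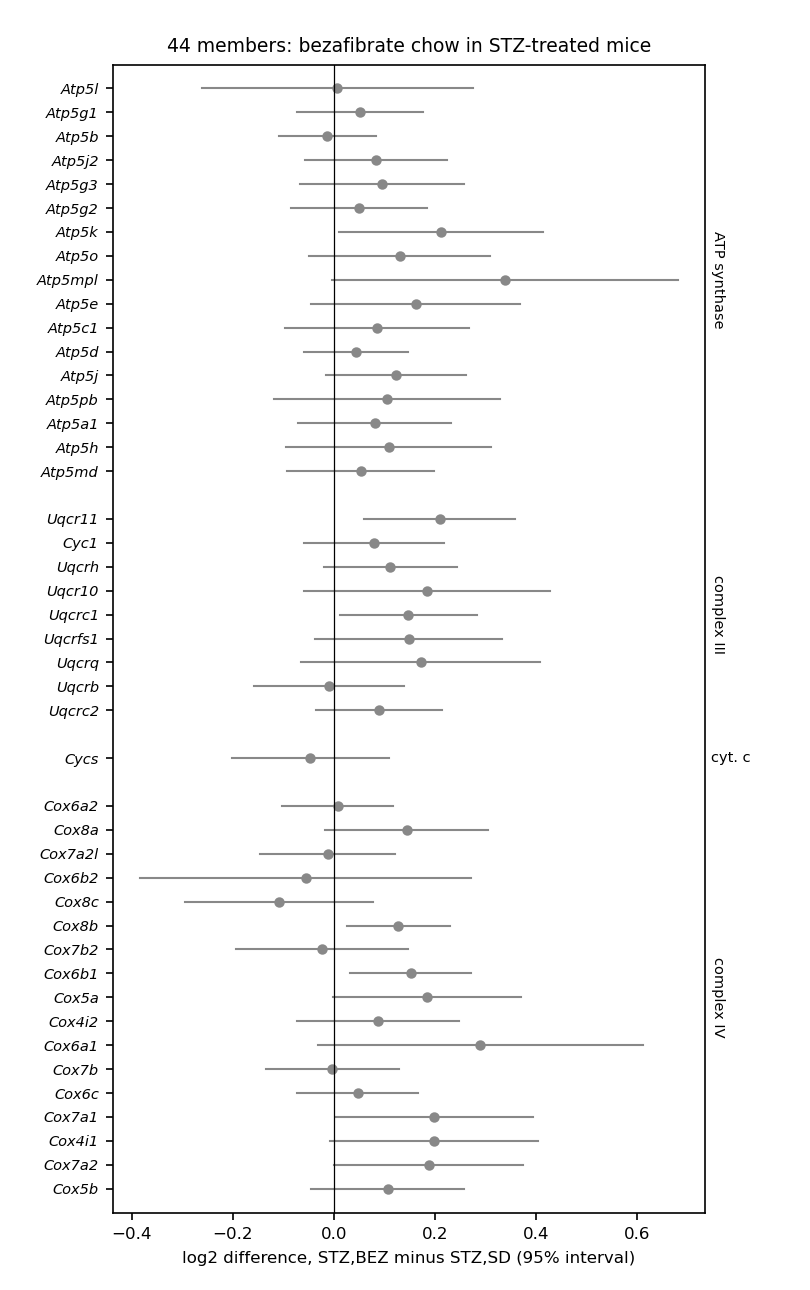
Log2 difference STZ,BEZ minus STZ,SD (x axis, points, with bars for the 95% interval from limma) for each of the 44 members (y axis, grouped by complex, in the order of the plot of differences from control). No member was called, and 36 of the 44 lie to the right of 0.

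The STZ,BEZ vs. Con,SD comparison shares its control arrays with the first comparison and its treated arrays with the second, so its values are given side by side with theirs and not as separate evidence. In bezafibrate-fed mice 10 members were lower than in controls (22.7%) and 4 higher (9.09%), against 8.45% and 13.1% of all genes. The median was -0.02, against -0.01 over all genes. A second quantile normalization gave 9 lower and 6 higher members and turned the median to 0.04, median centring gave 9 and 5 with a median of 0.00, and without Con,SD mouse 1 the counts were 9 and 4. By complex, 6 ATP synthase members were lower, 2 of complex III lower and 1 higher, 1 of complex IV lower and 3 higher, and Cycs was lower. Of the hepatocyte markers 8 of 12 were lower (mean level 7.76 to 8.38 in STZ,BEZ, 7.62 to 11.98 in Con,SD) and of the endothelial markers 3 of 6 were higher (9.23 to 9.35, against 8.90 to 9.14), and their part in the result was not tested.

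Atp5md had the largest fall, at -0.72 ± 0.06 (adjusted p = 3.49e-06) beside -0.77 in STZ,SD, and its values did not overlap those of the controls. Atp5h was at -0.51 ± 0.09 (adjusted p = 0.00123) beside -0.62. Its highest treated mouse, at 11.75, lay above the lowest control, at 11.71. Atp5a1 was at -0.31 beside -0.39, Atp5d at -0.24 beside -0.29, Atp5j at -0.23 beside -0.36 and Atp5pb at -0.26 beside -0.36. The call of Atp5pb (adjusted p = 0.0866) was lost in 10 of 29 settings, and its dimmer probe set differed by -0.06 and was not called. Atp5c1 (-0.20, adjusted p = 0.102) and Atp5e (-0.11, adjusted p = 0.428) were not called, beside -0.29 and -0.27.

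In complex III, Uqcrb was at -0.28 ± 0.07 (adjusted p = 0.00761) beside -0.27 and Uqcrc2 at -0.30 ± 0.06 (adjusted p = 0.00167) beside -0.39. Uqcrc1 and Uqcrfs1 were at -0.02 and -0.05 and not called, beside -0.17 and -0.20. Uqcr11 was higher than in controls, by 0.29 ± 0.07 (1.22-fold, adjusted p = 0.00765), beside 0.08 in STZ,SD. Its control values ran from 11.53 over 11.59 to 11.82, and only Con,SD mouse 6 reached the lowest treated mouse. Cycs was at -0.30 ± 0.07 (adjusted p = 0.00731) beside -0.25. Its dimmest probe set, with a mean of 5.86, differed by 0.18 and was not called. The remaining Cycs probe set differed by -0.32 and was called lower.

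In complex IV, Cox5b was at -0.32 ± 0.07 (adjusted p = 0.00402) beside -0.42, and Cox7a2 at -0.13 and not called, beside -0.32. Cox6a2 was higher by 0.27 ± 0.05 (adjusted p = 0.00129) beside 0.27. Its STZ,BEZ values were 13.09, 13.09, 13.17, 13.18 and 13.18, above every control. Cox8a was higher by 0.32 ± 0.07 (adjusted p = 0.0058) beside 0.18. Its STZ,BEZ values were 9.92, 10.00, 10.04, 10.05 and 10.12, above the highest control at 9.89. Cox8b was higher by 0.12 ± 0.05 (adjusted p = 0.0896) beside -0.01, a call lost in 15 of 29 settings. Cox7a2l, at 0.15 beside 0.16, was not called (adjusted p = 0.103), but its dimmer probe set was called higher (0.28). Of the 32 assembly factors 12 were lower and 4 higher (median -0.17), against 8.45% and 13.1% of all genes. COX2 was lower by 0.32 ± 0.07 (adjusted p = 0.00544).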

How the data were processed

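Muscle RNA was hybridised to Affymetrix expression arrays. The authors deposited log2 values from RMA, and the submitters' processing notes list Expression Console 1.2. Its quantile normalization hides a common shift of most genes. The number of arrays, called biological replicates in the labels, limits the precision. Of 35556 probe sets 21789 had 1 symbol, giving 19938 genes.

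All 17 arrays, grouped by the labels, entered 1 fit (R 4.3.3, limma 3.58.1 with lmFit and eBayes, two-sided). A gene was called at a Benjamini-Hochberg adjusted p under 0.1 over all genes, the rate used for SAM in the study. Errors of differences are SE. The fit was also run on simulated data in which genes varied independently of each other. Members varied together between mice, so that run does not show how reliable their calls are. Members and lists were chosen with earlier results of these data known.

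Values by mouse (for controls their lowest, median and highest) are given, by rule, in STZ,SD, and in STZ,BEZ for part of them, for the 4 members of each complex with the smallest adjusted p in STZ,SD vs. Con,SD, the member of each with the smallest p in STZ,BEZ vs. STZ,SD, the isoform pairs and members called higher, and up to 3 genes of another list are named. Casq2, Ndufa4, Atpif1 and Sdhb were named as counts of 1 after their values were seen. Alternatives were a filter on the dimmest 30% of genes, repeated quantile normalization, median centring, other uses of probe sets, fits of 2 groups, array weights, a trended robust prior, SAM with 100 permutations, the replicate number as a block, each array left out and, chosen after seeing the data, a slow fibre covariate.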

Additional observations from a re-analysis of the deposited data

Results flagged for a closer look

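A mouse far from the others of its group was found in 8 of the 132 groups of values tested over the members, and in 3 of 39 groups of mean levels of marker lists and complexes. Chance alone gives about 5% of such groups. Con,SD mouse 6 was the low value in 5 of the 8, at 12.48 for Atp5a1 (next control 12.78), 12.17 for Atp5c1 (12.56), 12.32 for Atp5g2 (12.49), 11.84 for Atp5g3 (12.05) and 12.71 for Uqcrc2 (12.89). STZ,BEZ mouse 3 was the high value for Atp5g1, at 13.46 (next 13.31), and for Cox6b1, at 12.01 (next 11.85). Con,SD mouse 1 was the high value for the testis form Cox6b2, at 6.59 (next 5.92).

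The same mouse had the highest mean level of the testis markers, at 8.98 (next 5.95), and of the brown adipocyte markers, at 6.43 (next 5.50). The mean level of the endothelial markers was highest in STZ,BEZ mouse 3, at 9.35 (next 9.26).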

How the results depend on the processing

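No called member of the 44 changed its sign under the 29 other settings, and the number of called members stayed within 1.5 times of 18, 0 and 14 in the 3 comparisons. With 1 array left out it ranged from 14 to 22 in STZ,SD vs. Con,SD and from 12 to 15 in STZ,BEZ vs. Con,SD. The calls of Uqcrfs1 (lost in 16 settings), Cox8a (15), Cox7a2l (10), Uqcrc1 (5), Atp5e (1) and Cycs (1, the replicate block) in STZ,SD and of Cox8b (15), Atp5pb (10) and Cycs (1, the mean of its probe sets) in STZ,BEZ vs. Con,SD depended on the setting. Calls were gained for Cox6c (4 settings), Uqcrq (3), Cox4i1 (2) and Atp5mpl (2) in STZ,SD, in each case also without Con,SD mouse 6, and for Cox7a2l (8), Atp5c1 (7), Cyc1 (2), Cox6a1 (1), Cox7a2 (1) and Uqcrh (1) in STZ,BEZ vs. Con,SD. Over all genes, 8673 instead of 5142 were called in STZ,SD vs. Con,SD and 7408 instead of 4298 in STZ,BEZ vs. Con,SD when all probe sets, unnamed ones included, were rows. In STZ,BEZ vs. STZ,SD 4 genes became 8 in a fit of only the 2 groups, 11 with array weights, 29 under SAM and 8 with the slow fibre covariate. The replicate block gave 3261 genes (17 members) in STZ,SD vs. Con,SD, 7 genes (0 members) in STZ,BEZ vs. STZ,SD and 15 members in STZ,BEZ vs. Con,SD. Arrays with the same number did not deviate together (correlations from -0.24 to 0.08), and 2, 0 and 1 of 10 arrays correlated best with their own number, so the numbers were not taken as pairs. The cause of these changes was not tested.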

Other observations

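In the complexes before and beside these in the chain, the called subunits of complex I were mostly lower, while those of complex II were mixed. Of 34 complex I subunits, counted without Ndufa4 and its relative Ndufa4l2, 16 were lower and 1 higher in STZ,SD vs. Con,SD (median -0.18). Over all genes 11.9% were lower and 13.9% higher. Ndufs4, needed for the final assembly of complex I, was lower by 0.62 ± 0.07 on the log2 scale, and Ndufb7 had a difference of -0.75 ± 0.09 and Ndufa7, the 1 that was higher, one of 0.45 ± 0.06, each with a limma adjusted p under 0.1. Of the 4 subunits of complex II, Sdha, the flavoprotein, had a difference of -0.38 ± 0.06 and Sdhd, a membrane anchor, one of -0.65 ± 0.12, both called lower, while Sdhc, the other anchor, was called higher (0.16 ± 0.05) and the remaining Sdhb, the iron-sulfur subunit, was not called (-0.09 ± 0.07). With bezafibrate, 34 of the 34 complex I subunits and 4 of 4 complex II subunits had a positive difference from STZ,SD (medians 0.12 and 0.13), and 0 were called.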
